A study of Mus musculus with 4 samples.

Results

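The genes described here are 28 genes of sterol and fatty acid synthesis, taken by symbol from 19938 genes that had a probe set with a single gene symbol on the array. These 28 were chosen with earlier results of these data known. They comprise 17 enzymes of the route from acetyl units to cholesterol, 7 enzymes of fatty acid synthesis and desaturation, and 4 genes of regulation and sterol transport. All 28 had such a probe set, and all 28 passed the filter on dim genes. Where a gene had more than 1 probe set, the brightest over the 4 arrays stood for it.

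Bone marrow cells of C57BL/6J mice were cultured for 7 days and then sorted. In the first group, called M1 by the submitters, the cells received GM-CSF (granulocyte-macrophage colony-stimulating factor) and were gated as CD45+, MHCII+, CD8a- and F4/80+. In the second group, called M2, M-CSF (macrophage colony-stimulating factor) came from 20% supernatant of L929 cells, a mouse fibroblast line, and the gate was CD45+, F4/80+ and CD11b+. Each group had 2 arrays. Growth factor, other products of L929 cells and gate changed together between the groups, so they cannot be told apart. The labels do not say whether replicates came from separate animals. The p-values here rest on the spread within these pairs of arrays. In the fit, each gene's spread was drawn toward that of all genes tested (4.17 prior against 2 residual degrees of freedom). In bulk RNA, fewer cells of a type and less RNA per cell cannot be told apart. Values are log2 expression, and differences are GM-CSF M1 minus M-CSF M2 with a standard error (SE, n = 2 per group).

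The GM-CSF arrays were less alike than the M-CSF arrays. Over the 14995 genes tested the SD of the difference within the pair was 0.325 in GM-CSF cells, against 0.18 in M-CSF cells. Xist, expressed from the inactive X chromosome, read 11.58 and 4.93 in GM-CSF cells, against 4.53 and 4.80 in M-CSF cells. Eif2s3y, a gene of the Y chromosome, had levels of 3.66 and 9.10 after GM-CSF culture, against 9.32 and 9.17 after M-CSF culture, so GM-CSF replicate 1 had the pattern of female cells and the other 3 arrays that of male cells. The GM-CSF pair therefore did not come from the same animal, and sex is part of its spread. Sex was also unbalanced between the groups, so it can enter each difference between them. With GM-CSF replicate 2 left out, sex and group cannot be told apart. For the M-CSF pair these genes leave separate animals and technical repeats undecided. Over all genes tested, 6.18% were called higher in GM-CSF cells and 4.53% lower. Of the 8 macrophage markers measured, 1 was higher in GM-CSF cells (Cd14, a lipopolysaccharide co-receptor) and 0 were lower, and none lay within background on all 4 arrays. Background here is 5.90, the mean over arrays of the 95th percentile of 1027 olfactory receptor genes. Of the dendritic cell markers, 3 of 9 were higher in GM-CSF cells, 0 were lower and 3 lay within background on all 4 arrays. The list was mixed, with 5 differences above 0 and 4 below. Both GM-CSF arrays lay above both M-CSF arrays for 5 and below them for 3, against 26.3% and 29.2% of all genes tested. Summed linear levels, which bright genes weigh most, were 2478 and 1757 in GM-CSF arrays, against 545 and 571 in M-CSF arrays. Of the B cell markers, 1 of 4 tested was lower in GM-CSF cells (Cd79b, a subunit of the B cell receptor, log2 -2.36 ± 0.13 SE) and 3 of 6 measured lay within background on all 4 arrays, with summed levels of 416 and 475 after GM-CSF culture, against 1387 and 1445 after M-CSF culture. The part of sex and of these cell types in the differences below was not tested.

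Cholesterol is built from acetyl-CoA through mevalonate, isoprenoid diphosphates, squalene and lanosterol, and fatty acids are built from the same acetyl-CoA through malonyl-CoA. Both routes are controlled by the SREBP transcription factors, which Srebf1 and Srebf2 encode. Insig proteins hold these factors in the endoplasmic reticulum while sterols are plentiful, and low sterol lets them reach the Golgi to be cut and released. In macrophages these routes supply membranes, lipid mediators and stored lipid, and the liver X receptors also raise Srebf1 and Scd1.

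Promoters are shown for 3 members, because known SREBP target promoters pair a sterol regulatory element with a binding box of the factor NF-Y. Mvd was the sterol enzyme that changed, Hmgcs1 was the 1 of 22 members searched with the core of the sterol regulatory element in its window, and Srebf2 encodes the SREBP of the sterol branch. The windows run from 250 bases before to 50 after the RefSeq start (GRCm38.p6), on the strand of the gene, at chr8:122443373-122443672 (minus strand) for Mvd, chr13:119690101-119690400 (plus strand) for Hmgcs1 and chr15:82147019-82147318 (plus strand) for Srebf2. Capitals mark CCAAT, the NF-Y box, the element core TCACCCCAC and its looser form TCACNCCA, each on either strand.
Mvd: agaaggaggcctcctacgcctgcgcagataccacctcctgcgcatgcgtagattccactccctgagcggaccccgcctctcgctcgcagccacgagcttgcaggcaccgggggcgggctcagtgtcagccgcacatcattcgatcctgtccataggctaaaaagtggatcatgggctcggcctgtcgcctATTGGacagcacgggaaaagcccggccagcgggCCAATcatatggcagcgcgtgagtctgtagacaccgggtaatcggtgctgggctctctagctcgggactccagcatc
Hmgcs1: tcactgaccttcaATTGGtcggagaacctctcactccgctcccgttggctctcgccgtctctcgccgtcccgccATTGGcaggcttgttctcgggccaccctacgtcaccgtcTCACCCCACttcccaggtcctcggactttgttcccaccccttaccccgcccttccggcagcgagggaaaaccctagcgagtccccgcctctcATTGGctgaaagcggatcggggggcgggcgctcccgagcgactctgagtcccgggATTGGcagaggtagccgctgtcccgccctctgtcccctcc
Srebf2: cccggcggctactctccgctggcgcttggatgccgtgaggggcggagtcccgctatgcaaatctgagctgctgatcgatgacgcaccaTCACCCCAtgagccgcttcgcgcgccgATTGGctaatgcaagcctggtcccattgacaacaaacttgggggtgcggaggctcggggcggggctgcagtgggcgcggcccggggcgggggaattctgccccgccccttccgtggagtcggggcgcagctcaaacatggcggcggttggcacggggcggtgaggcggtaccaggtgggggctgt

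CCAAT was found for 20 of the 22 members with a promoter in the RefSeq table, and for 14 of 14 sterol enzymes. It was present in 37.4% of all 32851 promoters and in at least 1 promoter of 41.1% of genes. The member promoters were richer in G and C, with a median of 62.7% over 27 promoters against 52.7% over all promoters, and the part of base composition in the CCAAT count was not tested. The looser sterol element TCACNCCA, which contains every match of the core, was found for 3 of 22 members (Hmgcs1, Msmo1 and Srebf2). It was present in 4.36% of all promoters and in at least 1 promoter of 4.97% of genes. The core TCACCCCAC was found for 1 of 22, in 0.551% of all promoters and for 0.614% of genes. CACGTG, the E-box, was found for 4 of 22 members (Dhcr7, Hsd17b7, Insig1 and Sc5d), in 7.15% of all promoters and for 8.09% of genes. These matches are letters within the windows and say nothing of binding. Fdps, Fdft1, Sqle, Stard4, Scd1 and Scd2 had no promoter in the table used and were not searched.

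Of the 28 members, 2 were higher in GM-CSF cells and 0 were lower (limma, Benjamini-Hochberg adjusted p under 0.05 over all genes tested). These were Scd1, a stearoyl-CoA desaturase that makes oleate and palmitoleate, and Mvd, the mevalonate diphosphate decarboxylase. Over all 14995 genes tested, 6.18% were called higher and 4.53% lower, so the share of members called was near that background. The other members differed by less than Mvd did, most of them in the same direction. The difference was above 0 for 26 of 28 members and for 47.6% of all genes tested, and the median was 0.29 for the members and -0.01 for all genes. An unadjusted p under 0.05 with a higher level in GM-CSF cells was reached by 13 of 28 members and by 12.9% of all genes, and by 0 members in the other direction against 12.6% of all genes. Both GM-CSF arrays lay above both M-CSF arrays for 16 of 28 members and for 26.3% of all genes, and below them for 0 members and 29.2% of all genes. Because the members were chosen with earlier results of these data known, these counts describe the members and test nothing.

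**Figure D1:**
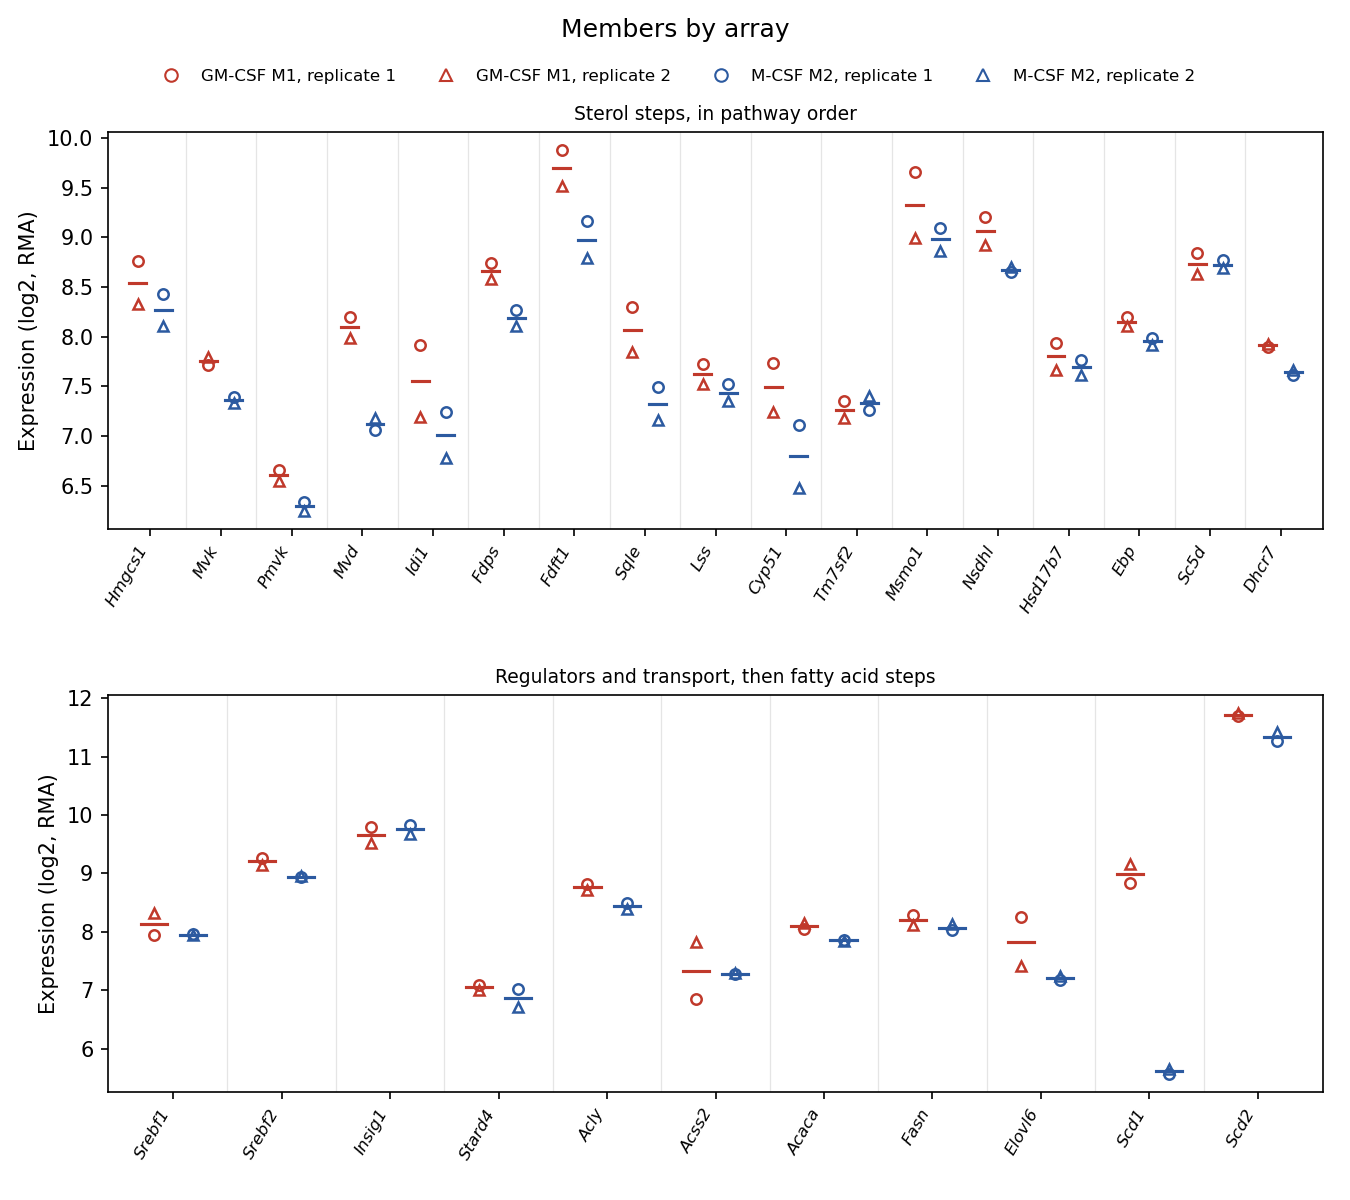
Log2 expression of the 28 members on each array, with GM-CSF M1 arrays in red on the left of each gene and M-CSF M2 arrays in blue on the right. Circles are replicate 1, triangles are replicate 2 and short bars are group means. Scd1 has the widest gap between groups of these members, at 8.83 and 9.16 against 5.57 and 5.66, while pairs of the sterol enzymes Idi1, Cyp51 and Msmo1 are spread widely.

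The sterol steps differed modestly, and the share called was near that of all genes. Of 17 enzymes, 1 was higher, against 6.18% of all genes tested, 0 were lower and 16 did not pass. The median difference was 0.35, with a range from -0.06 to 0.98. Both GM-CSF arrays lay above both M-CSF arrays for 10 of 17, against 26.3% of all genes. An unadjusted p under 0.05 with a higher level in GM-CSF cells was reached by 9 of 17, against 12.9% of all genes (limma).

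Among the mevalonate steps, Mvd carried the clearest difference. It makes isopentenyl diphosphate, the building block of all isoprenoids. Mvd read 8.20 and 7.99 in GM-CSF cells, against 7.06 and 7.18 in M-CSF cells. The groups did not overlap, and Mvd was 1.97-fold higher in GM-CSF cells (log2 difference 0.98 ± 0.12 SE, limma adjusted p = 0.00596). The difference kept its size with each array left out, from 0.87 to 1.08, but the call was lost without M-CSF replicate 1 (adjusted p = 0.111, limma) and without M-CSF replicate 2 (0.0936).

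The enzymes on either side of Mvd did not pass. Hmgcs1, the synthase that commits acetyl units to the pathway, read 8.76 and 8.33 in GM-CSF cells, against 8.43 and 8.11 in M-CSF cells, so the groups overlapped (0.27 ± 0.18). Mvk, mevalonate kinase, read 7.72 and 7.80 against 7.39 and 7.33, with no overlap and a small spread within each pair (0.40 ± 0.11, adjusted p = 0.0669). Pmvk, which adds the next phosphate, differed by 0.31 ± 0.11, also without overlap. Without an array, Mvk passed in the fit that left out GM-CSF replicate 1 (adjusted p = 0.0325, limma) and Hmgcs1 in the fit that left out GM-CSF replicate 2 (0.0327).

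Past Mvd, Idi1 and Fdps turn isopentenyl diphosphate into farnesyl diphosphate, the branch point for sterols, ubiquinone, dolichol and prenylated proteins. Idi1, the isomerase, read 7.92 and 7.19 in GM-CSF cells, against 7.24 and 6.78 in M-CSF cells. GM-CSF replicate 1 was the high array and the groups overlapped. The difference of 0.55 ± 0.27 was 0.18 when that array was left out and 0.91 when GM-CSF replicate 2 was. Both probe sets of Idi1 gave similar differences, 0.50 and 0.55. Fdps, the synthase, read 8.74 and 8.58 against 8.27 and 8.11, with no overlap (0.47 ± 0.12, adjusted p = 0.0617). Fdps passed with trended and robust variances (adjusted p = 0.0443, limma).

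Fdft1 and Sqle, the first enzymes committed to sterols, followed Mvd in the size of their differences but did not pass. Fdft1, squalene synthase, read 9.88 and 9.52 in GM-CSF cells, against 9.17 and 8.79 in M-CSF cells (0.72 ± 0.18, adjusted p = 0.0572). Its 2 probe sets differed by 0.72 and 0.74. Sqle, squalene epoxidase, read 8.30 and 7.85 against 7.49 and 7.16 (0.75 ± 0.19, adjusted p = 0.0582). Neither gene's groups overlapped, and within pairs the arrays of Fdft1 lay 0.36 apart in GM-CSF cells and 0.38 apart in M-CSF cells. Each passed without GM-CSF replicate 1 (0.0275 for Fdft1 and 0.0268 for Sqle, limma) and without GM-CSF replicate 2 (0.000556 and 0.000195), fits that take their spread from the M-CSF pair alone. Fdft1 also passed with trended and robust variances (0.0485). Lss, which closes squalene epoxide into lanosterol, differed by 0.19 ± 0.13 with groups that touched at 7.52.

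From lanosterol on, 0 of 8 enzymes passed, where 6.18% of all genes tested were called higher and 4.53% lower. The median difference was 0.24, against -0.01 for all genes. Cyp51, the lanosterol demethylase, read 7.74 and 7.24 in GM-CSF cells, against 7.11 and 6.48 in M-CSF cells. The groups did not overlap but the pairs lay 0.50 apart in GM-CSF cells and 0.63 apart in M-CSF cells. The difference of 0.69 ± 0.25 ran from 0.38 to 1.01 with arrays left out. Nsdhl, which helps remove the methyl groups at carbon 4, differed by 0.39 ± 0.13 without overlap.

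Msmo1, the oxidase of the same demethylation, read 9.66 and 8.99 in GM-CSF cells, against 9.10 and 8.86 in M-CSF cells. GM-CSF replicate 1 was again the high array. The difference of 0.35 ± 0.23 was 0.01 when that array was left out and 0.68 when GM-CSF replicate 2 was. Dhcr7, the last reductase before cholesterol, differed by 0.27 ± 0.10 and Ebp, the sterol isomerase, by 0.20 ± 0.11, both without overlap.

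Hsd17b7 (0.11 ± 0.13), Sc5d (0.01 ± 0.12) and Tm7sf2 (-0.06 ± 0.12) overlapped and changed sign with at least 1 array left out, and Sc5d also when arrays were centred on their medians (-0.035). They act in ketone reduction, desaturation and the reduction of the carbon 14 double bond of sterol intermediates. The 95% interval of the difference ran from -0.35 to 0.23 for Tm7sf2 and from -0.29 to 0.30 for Sc5d, so differences of the size of Mvd's lay outside both.

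**Figure D2:**
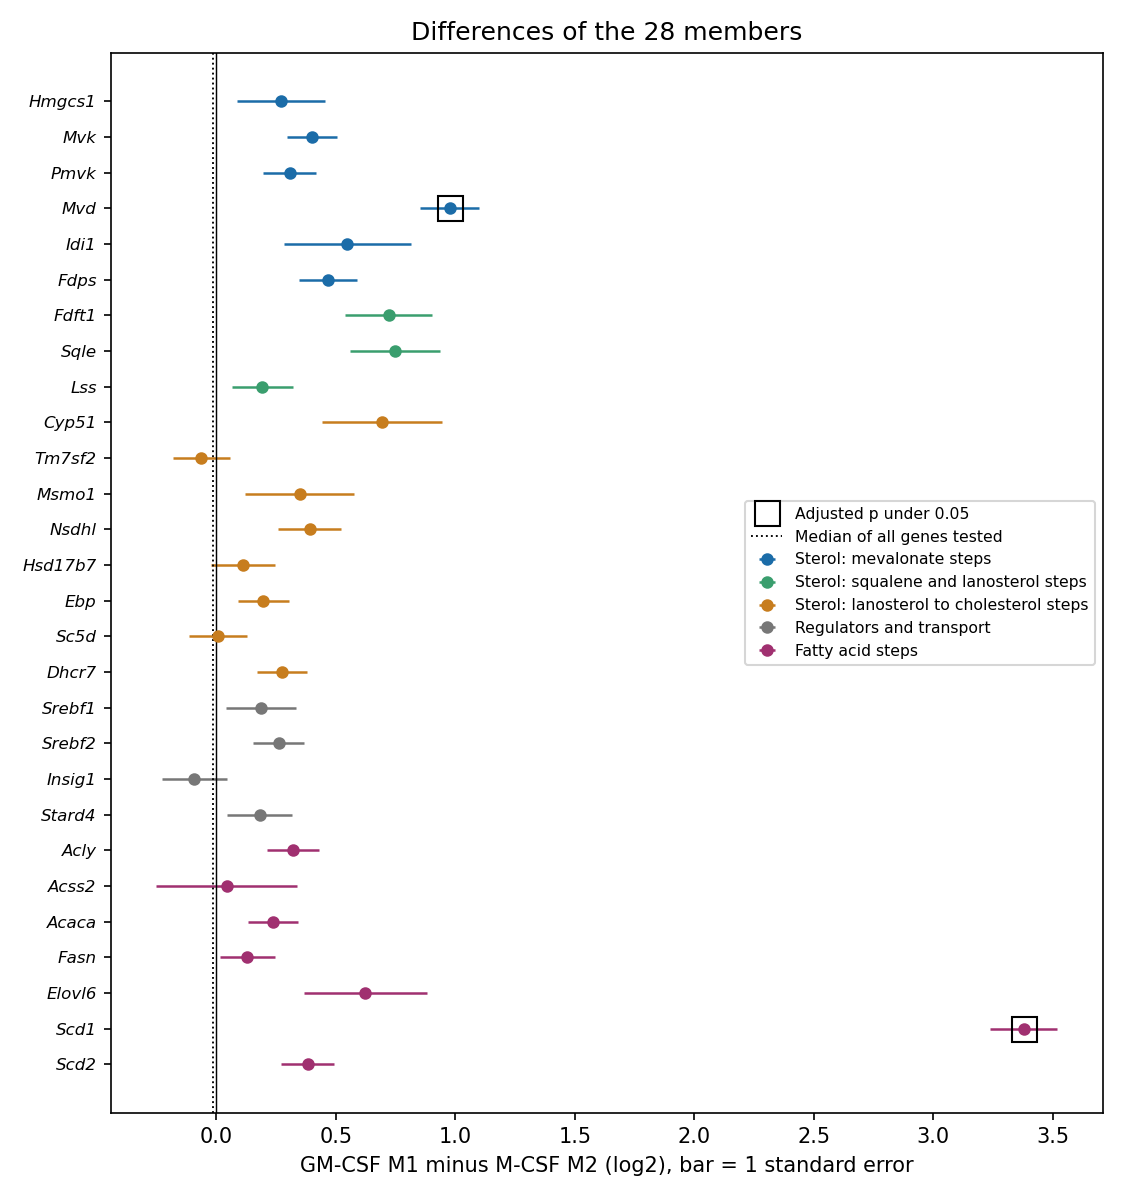
Difference of each member, GM-CSF M1 minus M-CSF M2 on the log2 scale, as points with bars of 1 standard error, coloured by step, with squares around the members past the threshold. Scd1 at 3.38 and Mvd at 0.98 carry squares, and most other points lie to the right of 0 and of the dotted median of all genes tested at -0.01.

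Within each pair of arrays the sterol enzymes tended to move together. GM-CSF replicate 1 was above GM-CSF replicate 2 for 15 of 17 sterol enzymes and for 44.0% of all genes tested, and the median difference within that pair was 0.22 for the sterol enzymes and -0.03 for all genes. M-CSF replicate 1 was above M-CSF replicate 2 for 13 of 17, with a median of 0.15, and for 57.6% of all genes, with a median of 0.03. Both held for 12 of 17 sterol enzymes and 27.5% of all genes. The fatty acid enzymes did not share this order, with 3 of 7 in the GM-CSF pair and 2 of 7 in the M-CSF pair.

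How many members passed depended on which array was left out, as it did for all genes. These fits leave 1 array in a group and take their spread from the other group alone. Without GM-CSF replicate 2, the GM-CSF array left has the female pattern and the M-CSF arrays the male pattern. Sex and group cannot be told apart in that fit. Without GM-CSF replicate 1, 6 of 28 members were higher, against 9.79% of all genes, and without GM-CSF replicate 2, 11 of 28, against 11.2%. In that last fit 1 member, Acss2, was lower, against 10.2% of all genes. Without M-CSF replicate 1 or replicate 2, 1 member (Scd1) was higher, against 1.31% and 1.12% of all genes. With all 4 arrays and trended and robust variances, 5 members passed (Fdft1, Fdps, Mvd, Scd1 and Scd2), against 6.66% of all genes.

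Genes of cell division were ordered likewise within the pairs. Of 15 proliferation genes measured, 13 were higher in GM-CSF replicate 1 than in replicate 2, against 44.0% of all genes tested. In the M-CSF pair 14 were higher in replicate 1, against 57.6% of all genes. Between groups, 6.18% of all genes were called higher and 4.53% lower, against 0 of the 15 proliferation genes. Their summed linear levels were 5519 and 4710 after GM-CSF culture, against 5209 and 4614 after M-CSF culture. GM-CSF replicate 1 also had the highest summed levels of 10 neutrophil markers (1404 and 648 in GM-CSF arrays, 880 and 766 in M-CSF arrays) and of 4 eosinophil markers (784 and 262 in GM-CSF arrays, 246 and 297 in M-CSF arrays), with 0 of these markers called higher. Of the 10 neutrophil markers, 8 were tested, 1 was lower in GM-CSF cells (Mpo, myeloperoxidase, log2 -0.64 ± 0.10 SE) and 2 (Retnlg and Cxcr2) lay within background on all 4 arrays. The median difference of GM-CSF replicate 1 minus replicate 2 was 0.81 over the 8 tested, of which 5 were higher in replicate 1. The part of sex, proliferation and other cell types in the order of the sterol enzymes was not tested.

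**Figure D3:**
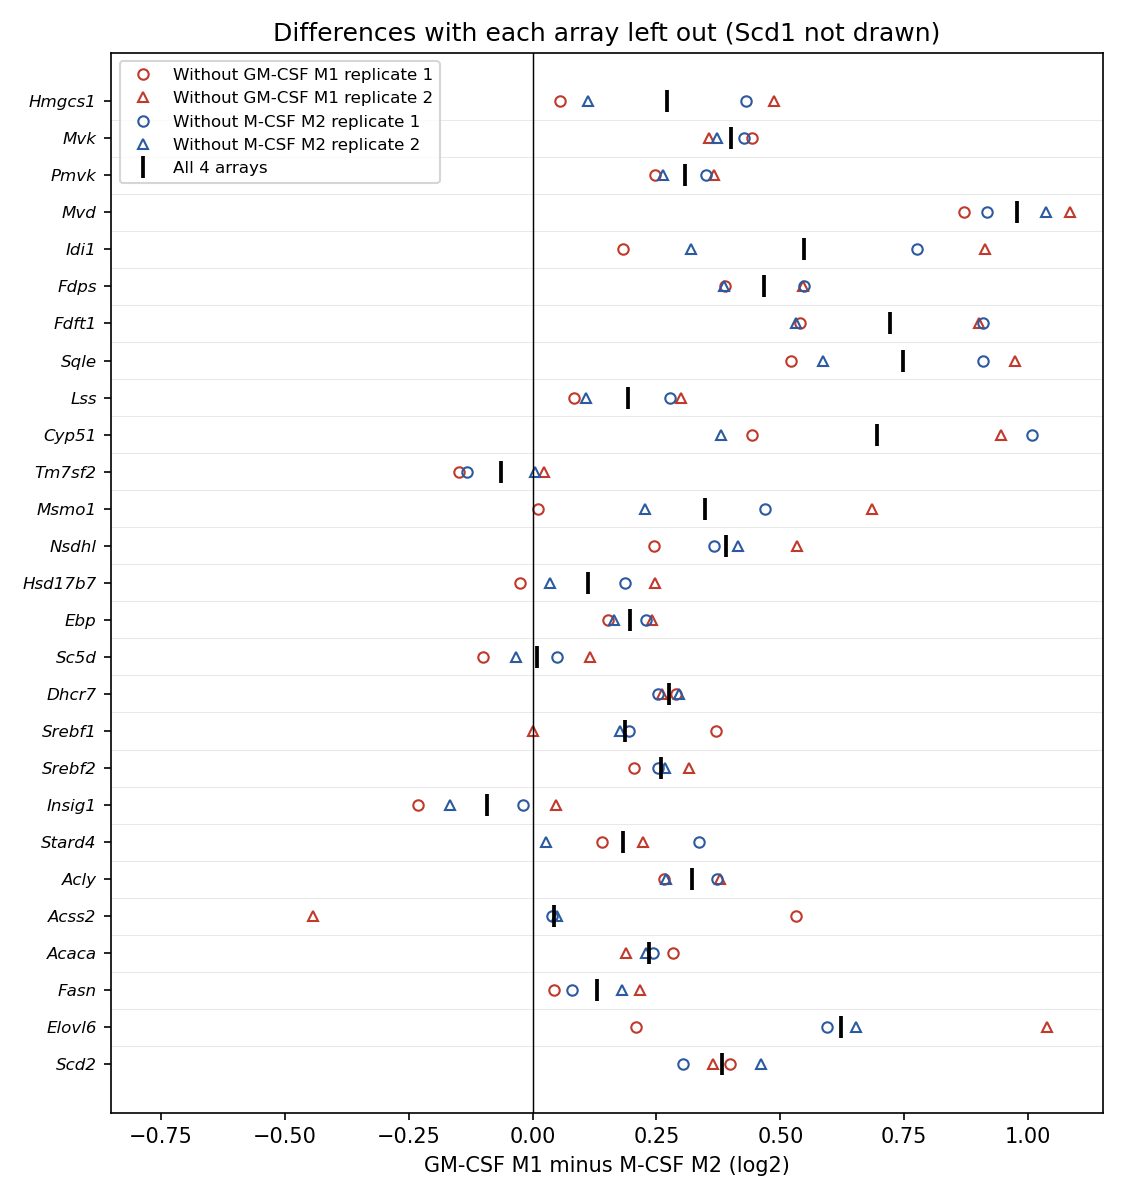
Difference of each member except Scd1, GM-CSF M1 minus M-CSF M2 on the log2 scale, with all 4 arrays (black bars) and with each array left out (red for GM-CSF arrays, blue for M-CSF arrays). Mvd stays between 0.87 and 1.08, Msmo1 lies at 0.01 without GM-CSF replicate 1, and Acss2 runs from -0.44 to 0.53.

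None of the 4 genes of regulation and transport passed, where 6.18% of all genes tested were called higher and 4.53% lower. Both GM-CSF arrays lay above both M-CSF arrays for 1 of 4, Srebf2, a share near the 26.3% of all genes tested. Srebf2 read 9.26 and 9.15 in GM-CSF cells, against 8.94 and 8.95 in M-CSF cells (0.26 ± 0.11, adjusted p = 0.195, limma). Srebf1, whose product favours fatty acid genes, read 7.95 and 8.32 against 7.96 and 7.94. Only GM-CSF replicate 2 was set apart, and the difference of 0.19 ± 0.15 (95% interval -0.17 to 0.54) became 0.37 when GM-CSF replicate 1 was left out and 0.0019 when replicate 2 was.

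Insig1, the sterol-sensing brake that is itself a target of SREBP, had the lowest difference of the 28 members. It read 9.80 and 9.52 in GM-CSF cells, against 9.83 and 9.68 in M-CSF cells, and the groups overlapped (-0.09 ± 0.14, 95% interval -0.42 to 0.24). Its sign turned without GM-CSF replicate 2 (0.047). Stard4, a carrier that moves cholesterol between membranes, differed by 0.18 ± 0.14 with overlap.

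Fatty acid synthesis was marked by the desaturase Scd1, while the core enzymes that build palmitate did not pass. Scd1 read 8.83 and 9.16 in GM-CSF cells, against 5.57 and 5.66 in M-CSF cells. Both M-CSF arrays lay below the background of 5.90 and both GM-CSF arrays well above it. Scd1 was 10.4-fold higher in GM-CSF cells (log2 difference 3.38 ± 0.14 SE, limma adjusted p = 0.000153), a fold that depends on the background of the array, and its GM-CSF mean lay 3.09 above that background. It stayed called with each array left out, with differences from 3.21 to 3.55 and adjusted p of up to 0.0174 (limma). Of 4 adipocyte markers, Adipoq and Lep lay within background on all 4 arrays. The 2 others, Plin1 and Cidec, had means above background in both groups. Their differences were -0.07 and 0.19, and 0 were called. The 4 markers summed to linear levels of 200 and 202 in GM-CSF arrays, against 191 and 199 in M-CSF arrays. The part of adipocytes in the Scd1 difference was not tested.

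Scd2, the related desaturase, read 11.70 and 11.74 in GM-CSF cells, against 11.26 and 11.42 in M-CSF cells. Its groups did not overlap and its difference of 0.38 ± 0.11 (95% interval 0.11 to 0.65) did not pass (adjusted p = 0.0872), though it did with trended and robust variances (0.0482, limma). The interval for Scd1 ran from 3.03 to 3.72. Whether the probes of these related genes are fully separate was not tested.

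The enzymes upstream of the desaturases did not pass, though the groups of Acly and Acaca did not overlap. Acly, which releases acetyl-CoA from citrate, read 8.82 and 8.71 in GM-CSF cells, against 8.50 and 8.40 in M-CSF cells (0.32 ± 0.11, adjusted p = 0.132). Acaca, which makes malonyl-CoA, differed by 0.24 ± 0.11 without overlap, and its 2 probe sets by 0.24 and 0.45. Fasn, fatty acid synthase, read 8.29 and 8.12 against 8.03 and 8.13. Its groups overlapped, and its difference of 0.13 ± 0.12 had a 95% interval from -0.15 to 0.41, which does not reach a doubling.

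Elovl6 and Acss2 depended on the GM-CSF array. Elovl6, which lengthens palmitate to stearate, the substrate of the desaturases, read 8.25 and 7.42 in GM-CSF cells, against 7.18 and 7.24 in M-CSF cells. The groups did not overlap, but the difference of 0.62 ± 0.26 became 0.21 when GM-CSF replicate 1 was left out and 1.04 when replicate 2 was. Acss2, which makes acetyl-CoA from acetate, read 6.85 and 7.82 in GM-CSF cells, against 7.28 and 7.29 in M-CSF cells, so the M-CSF arrays lay between the GM-CSF arrays. Its difference of 0.04 ± 0.30 became 0.53 without GM-CSF replicate 1 (adjusted p = 0.0112, limma) and -0.44 without GM-CSF replicate 2 (0.028), so its direction rested on a single array.

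Beyond the members, 75 further genes of lipid synthesis in 7 lists were examined, of which 59 were tested, 5 were higher in GM-CSF cells, 3 were lower and 51 did not pass, with a median difference of -0.03. The shares again compare with 6.18% higher and 4.53% lower over all genes. Of 11 tested genes of fatty acid supply and desaturation, 2 were higher and 1 lower. Fads2, the delta-6 desaturase of polyunsaturated fatty acids, read 8.82 and 9.32 in GM-CSF cells, against 6.50 and 6.66 in M-CSF cells, and was 5.61-fold higher (log2 2.49 ± 0.18 SE, limma adjusted p = 0.000812). Fads2, like Scd1, was higher in GM-CSF replicate 2 than in replicate 1 and stayed called with each array left out (adjusted p of up to 0.0387, limma).

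Mid1ip1, whose product promotes the active polymer of acetyl-CoA carboxylase, was 1.48-fold higher (0.57 ± 0.11) and did not pass without either M-CSF array (0.178 and 0.221) or as the mean of its 2 probe sets (0.29, adjusted p = 0.142, limma). Fads3, a relative of Fads2, was 1.42-fold lower in GM-CSF cells (-0.51 ± 0.12), and its call was lost without either M-CSF array (adjusted p = 0.314 and 0.182, limma) and with no filter (0.0613).

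Of 10 tested genes of fatty acid activation and glycerolipid synthesis, 1 was higher and 0 lower. Dgat2, which adds the last fatty acid of triglyceride, read 8.53 and 8.87 in GM-CSF cells, against 6.22 and 6.28 in M-CSF cells. It was 5.46-fold higher (log2 2.45 ± 0.14 SE, limma adjusted p = 0.000426) and stayed called with each array left out (adjusted p of up to 0.0276). Of 9 tested elongation genes, 1 was higher. This was Elovl7, an elongase, at 7.91 and 6.61 against 5.50 and 5.13, and its difference of 1.95 ± 0.40 became 1.30 when GM-CSF replicate 1 was left out and 2.60 when replicate 2 was. Its call was lost without either M-CSF array (0.212 and 0.27, limma) and with trended and robust variances (0.168), and both M-CSF arrays lay below background, with the GM-CSF mean 1.36 above it.

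Of 7 tested genes of cholesterol storage and oxysterols, 1 was higher. Ch25h, which makes 25-hydroxycholesterol, an oxysterol that restrains SREBP processing, read 8.21 and 7.33 in GM-CSF cells, against 5.26 and 5.46 in M-CSF cells. It was 5.29-fold higher (2.40 ± 0.28, limma adjusted p = 0.00432), a fold that depends on background because both M-CSF arrays lay below 5.90, and its GM-CSF mean lay 1.86 above that level. The call was lost without M-CSF replicate 1 (0.102) and replicate 2 (0.0878). Of 8 tested genes of SREBP processing and sterol sensing, 0 passed. All 8 differences were below 0, from -0.41 to -0.01, where 47.6% of all genes lay above 0, but 4 of the 8 turned with an array left out. Nr1h3, the liver X receptor alpha gene, singled out after its values were seen, read 7.41 and 8.94 in GM-CSF cells, against 8.37 and 8.33 in M-CSF cells. Its difference of -0.18 ± 0.45 became 0.59 when GM-CSF replicate 1 was left out (adjusted p = 0.00566, limma) and -0.94 when replicate 2 was (7.64e-05), so its direction rested on 1 array, as for Acss2. Erlin2, Insig2 and Mbtps1, with differences between -0.03 and -0.01, also turned (0.096, 0.041 and 0.0055).

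Lower calls in GM-CSF cells also fell on Lbr and Pggt1b, which act elsewhere in sterol and isoprenoid metabolism. Lbr, the lamin B receptor, a nuclear envelope protein that also reduces the carbon 14 double bond of sterols as Tm7sf2 does, read 6.96 and 6.74 in GM-CSF cells, against 8.19 and 8.02 in M-CSF cells. It was 2.38-fold lower (log2 -1.25 ± 0.13 SE, limma adjusted p = 0.00283), from -1.14 to -1.36 with arrays left out, and its call was lost without M-CSF replicate 1 (0.0729) and replicate 2 (0.0581). Of 13 tested isoprenoid genes, 0 were higher and 1 lower. This was Pggt1b, a subunit of the enzyme that attaches geranylgeranyl groups to proteins, at -0.54 ± 0.13 with an adjusted p of 0.049 (limma). The Pggt1b call was lost without either M-CSF array (0.331 and 0.26), with no filter (0.0677) and after quantile normalization (0.0502).

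**Figure D4:**
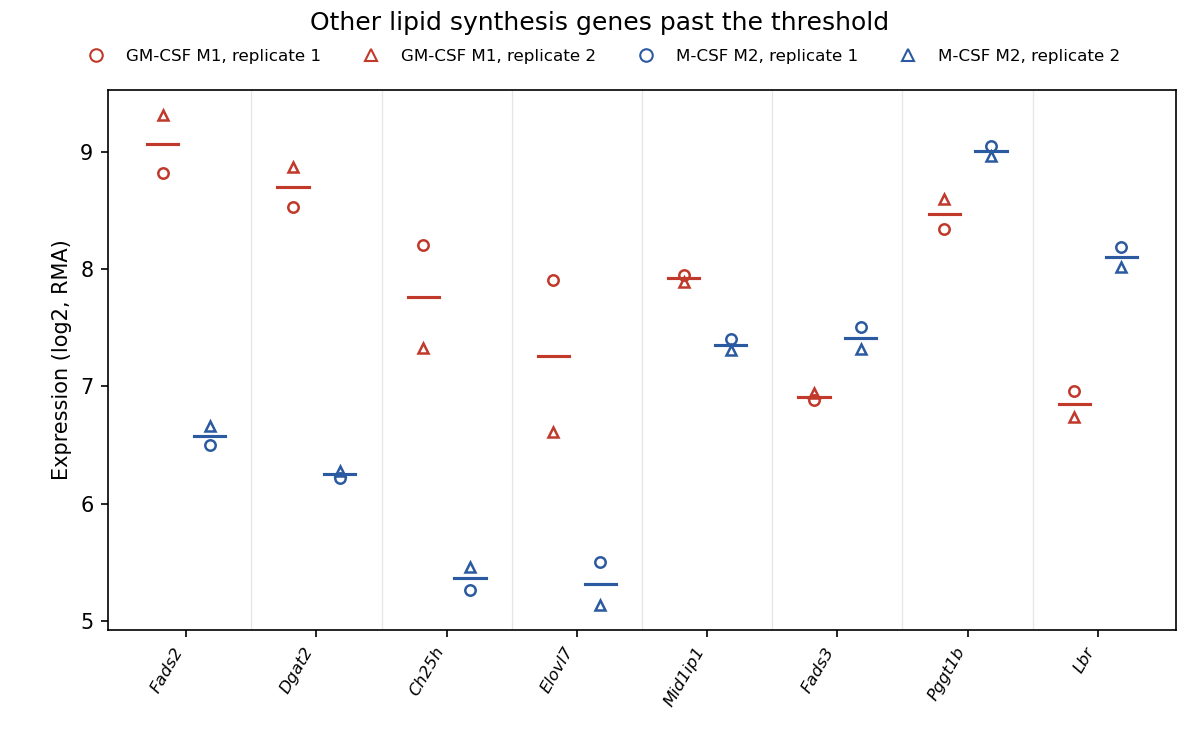
Log2 expression of the 8 further lipid synthesis genes past the threshold, with GM-CSF M1 arrays in red on the left and M-CSF M2 arrays in blue on the right of each gene. Circles are replicate 1, triangles are replicate 2 and short bars are group means. Fads2, Dgat2, Ch25h, Elovl7 and Mid1ip1 are higher in GM-CSF cells, and Fads3, Pggt1b and Lbr lower.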

How the data were processed

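The authors deposited RMA signals on the log2 scale, and Affymetrix Expression Console 1.1 is named in the submitters' processing notes. Per the labels' protocols each array took 300 ng of RNA. RMA corrects background, makes the arrays' distributions equal and joins a probe set's probes, which shrinks differences of dim genes and hides any change in RNA per cell. The files name no genome build, scan date or detection call, so batches were not tested, and the number of arrays limits the precision.

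Platform annotation gave 1 symbol to 21789 of 35556 probe sets, several to 1621 and none to 12146, and those with 1 were used. Genes above an array's 30th percentile on at least 2 of 4 arrays (14995) were fitted with limma 3.58.1 under R 4.3.3. The two-sided test used lmFit with eBayes (2 residual degrees of freedom, 4.17 prior) and Benjamini-Hochberg adjustment over these genes, and 95% intervals come from the same fit. All 28 members were named, and of each other lipid synthesis list the called genes. Nr1h3, Erlin2, Insig2 and Mbtps1 were not called and were named after their values were seen. Some cell type markers were also named. The fit was tested on simulated data. Alternatives were other filters, probe set means, median centring, quantile normalization, trended and robust variances, a replicate block and each array left out. The labels do not state that same-numbered arrays are paired, and the main fit has no block. A planned comparison of protein sequences was not run. Python 3.11.15 with pandas 2.3.3 and matplotlib 3.10.9 made tables and plots. Members, lists and the olfactory receptor background were chosen with earlier results of these data known.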

Additional observations from a re-analysis of the deposited data

How the results depend on the processing

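With 2 arrays per group, calls followed the spread within pairs. A fit without 1 array has a single array in that group, and without GM-CSF replicate 2 sex and group cannot be told apart. Leaving out each array in turn gave from 168 to 1683 genes higher and 65 to 1522 lower over all genes, 0 to 9 sterol members higher, 1 to 2 fatty acid members higher and 0 to 1 lower, and 2 to 9 members of the other lists higher and 0 to 12 lower. Over all genes these were 11.2% higher and 10.2% lower without GM-CSF replicate 2, and 1.12% and 0.433% without M-CSF replicate 2. The median difference of the sterol members then ran from 0.25 to 0.49. At an adjusted p under 0.01, 438 genes were higher and 223 lower, and the other lists had 3 and 1. Trended and robust variances called 3 sterol and 2 fatty acid members higher, and no filter left 1 lower gene of the other lists.

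The replicate block called 4 sterol members higher (Fdft1, Sqle and Cyp51 beside Mvd) with 6.44% of all genes higher, and ended the calls of Fads3 and Pggt1b. The labels give no pairing, and same-numbered deviations correlated at 0.0649 over genes.

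Signs turned for Tm7sf2 without GM-CSF replicate 2 (0.023, against -0.15 without replicate 1) and M-CSF replicate 2 (0.0059), for Hsd17b7 without GM-CSF replicate 1 (-0.025, and up to 0.25) and for Insig1 without GM-CSF replicate 2 (0.047, and down to -0.23). They also turned for Sc5d with median centring (-0.035), without GM-CSF replicate 1 (-0.10, against 0.12 without replicate 2) and without M-CSF replicate 2 (-0.033), and for Acss2 without GM-CSF replicate 2 (-0.44, against 0.53 without replicate 1). Centring moved the median of all genes from -0.01 to -0.06, and no other member changed sign under it or under quantile normalization, the filters, probe set means, trended variances or the block. The cause of these shifts was not tested.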
